A study of Caenorhabditis elegans with 24 samples.

Results

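The response described here is that of whole, germline-bearing young adult Caenorhabditis elegans to UVC light, read across all genes. It was taken over 16 of the 24 arrays of the series: 8 arrays of irradiated animals (xpa-1 UV and N2 UV, 4 each) and 8 arrays of untreated animals (xpa-1 control and N2 control, 4 each). The strain and treatment in the sample titles decided membership, and no measured value entered the choice. N2 is the wild type, and xpa-1 is a deletion mutant (strain RB864, outcrossed 3 times) that lacks the nematode counterpart of XPA. The arrays of glp-1 (strain JK1107, a point mutant of a Notch receptor that germline stem cells need) stayed out of the main test of the pooled response. They entered the normalization, the choice of a probe set for each gene and an alternative fit over all 24 arrays. All animals were raised at 25 °C and used 24 h after the L4 stage with a visible vulval crescent. Irradiated animals received 50 J/m2 from a lamp with an emission peak at 254 nm, on plates without food, were then given bacteria, and were frozen 3 h after exposure. Each array drew on RNA of a large pool of worms. Each strain and treatment had 2 arrays from 2007 and 2 from 2008, and whether replicates came from cultures of their own is not in the labels, so the p-values speak to the spread among these arrays, which may be technical.

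UVC joins neighbouring pyrimidines in DNA into dimers that stall polymerases. Nucleotide excision repair removes them: a damage sensor binds, the helicases of TFIIH open the strand, XPA checks the lesion, and nucleases cut out the damaged stretch. In C. elegans the adult soma no longer divides, while the germ line does, and damaged germ cells can arrest or die through the p53 relative CEP-1. Adults also meet damage and poisons with secreted immune effectors and with detoxification enzymes in the intestine.

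The arrays of the 2 years differed in brightness and in error. Deposited median intensities were 5.45 to 8.42 on the 8 arrays of 2007, amplified from 500 pg of RNA, and 87 to 191 on the 8 arrays of 2008, amplified from 100 ng with another kit. Within a group of strain, treatment and year, replicate arrays correlated at Spearman's rho of 0.808 to 0.879 in 2007 and 0.96 to 0.975 in 2008. The median SD over genes within such groups was 0.29 in 2007 and 0.12 in 2008 on the log2 scale, so the arrays of 2008 carry the smaller error. All levels below are log2(intensity + 32) after quantile normalization, with a floor of 5.00 for intensities at or below 0, and the number of arrays limits their precision. The label of the mutant was borne out by the xpa-1 transcript, which stood at 5.15 ± 0.14 in xpa-1 UV arrays and 5.71 ± 0.59 in xpa-1 control arrays, against 9.56 ± 0.53 in N2 UV arrays and 9.55 ± 0.41 in N2 control arrays (SD, n = 4 each).

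With strain and year as blocks, 43 of 22548 probe sets passed an adjusted p of 0.05 (limma, Benjamini-Hochberg over all probe sets), which is 0.191%. Of these, 28 were higher and 15 lower in UV arrays, which is 65.1% higher. Both the number and the split depended on the setting: 633 were called after median centring (97.3% higher), 272 with 1 weight per year (45.6% higher) and 33 with all 24 arrays in the fit (51.5% higher). With each gene read on its brightest probe set, 36 of 17118 genes were called (0.210%): 24 rose (0.140%) and 12 fell (0.0701%). All 36 had the same sign in each of the 4 combinations of strain and year. The pooled effect is the mean over these combinations, so this agreement is partly fixed by the choice of genes. On the log2(intensity + 32) scale 20 rises exceeded 1, and 3 falls went beyond -1. An unadjusted p under 0.05 was reached by 2062 probe sets, where 1127.4 would be expected with no effect anywhere. In whole animals, a lower signal can come from fewer cells of a type or from less RNA per cell, and these cannot be told apart.

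Some genes named for their response to infection were among the clearest rises, whereas irg-6 stood at -0.09 (adjusted p = 0.952). The gene irg-2, an infection response gene that the bZIP factor ZIP-2 controls during Pseudomonas infection, ran from 6.57 to 8.42 with a median of 7.69 over the 8 UV arrays, against 5.00 to 6.22 with a median of 5.18 over the 8 control arrays. Its 2 groups did not overlap, and 4 of the 8 control arrays sat at the floor. It rose by 2.24 (SE 0.21, adjusted p = 0.000479), which understates the fold because of that floor. The related irg-1 had levels of 7.61, 7.80 and 8.67 (lowest, median, highest) in UV arrays, against 5.00, 5.86 and 7.01 in control arrays. Here too every irradiated sample lay above every untreated one, and the rise was 1.99 (SE 0.23, adjusted p = 0.00174). The antimicrobial peptide gene cnc-4, a caenacin, had 9.55, 9.82 and 10.65 in UV arrays, against 7.58, 8.18 and 9.25 in control arrays, again without overlap, and rose by 1.6 (SE 0.26, adjusted p = 0.0233). Its call was lost in 8 of the 16 fits that each left out 1 array, with adjusted p up to 0.0718. The measured caenacin genes beside it were not called, at 0.01 (cnc-1), -0.06 (cnc-5), -0.27 (cnc-3) and 0.40 (cnc-2).

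Other rises belonged to genes of detoxification enzymes and transporters. The cytochrome P450 gene cyp-14A5 had levels of 9.68, 10.44 and 11.09 (lowest, median, highest) in UV arrays, against 6.84, 7.88 and 9.05 in control arrays. The groups were apart, and the rise of 2.38 (SE 0.23, adjusted p = 0.000479) was 2.36 in xpa-1 and 2.41 in N2. The gene ugt-26 encodes a UDP-glucuronosyltransferase, an enzyme class that tags small molecules for export. Its levels were 9.36, 10.16 and 10.95 in UV arrays, against 7.18, 8.04 and 9.66 in control arrays. The ranges overlapped because the 2007 arrays were brighter for this gene in both treatments, but within each year all UV arrays lay above all control arrays; ugt-26 rose by 1.88 (SE 0.20, adjusted p = 0.00137).

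The ABC transporter gene pgp-8, a P-glycoprotein, had levels of 6.28, 7.75 and 9.36 (lowest, median, highest) in UV arrays, against 5.00, 5.25 and 5.88 in control arrays, of which 4 were at the floor. Its rise of 2.37 (SE 0.31, adjusted p = 0.00424) was 3.17 in 2007 and 1.57 in 2008, a difference that was not called (adjusted p = 0.547). Its relative pgp-5 had 5.80, 7.75 and 8.11 in UV arrays, against 5.54, 6.02 and 7.1 in control arrays, and rose by 1.46 (SE 0.25, adjusted p = 0.0365). It is the only called rise in which an irradiated array fell below the mean of the untreated arrays of the same strain and year. The call of pgp-5 was lost in 13 of the 16 fits without 1 array. The P-type cation ATPase gene catp-3 stood at 9.50, 10.30 and 10.92 in UV arrays, against 7.32, 8.03 and 9.02 in control arrays, with no overlap. It rose by 2.23 (SE 0.25, adjusted p = 0.00159), at 2.24 in xpa-1 and 2.23 in N2, and its second probe set gave 2.03 (adjusted p = 0.0115).

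The adjacent genes Y58A7A.3, Y58A7A.4 and Y58A7A.5 of chromosome V rose together. Y58A7A.5 had levels of 8.5, 9.37 and 9.52 (lowest, median, highest) in UV arrays, against 5.40, 6.97 and 7.70 in control arrays. It rose by 2.52 (SE 0.24, adjusted p = 0.000479), the highest value on this scale, and no irradiated sample reached down to the untreated ones. The order of the rises depends on the added constant: with log2(value + 1) irg-2 and pgp-8, each at the floor on 4 control arrays, had 5.27 and 5.26, parg-2 4.03 and Y58A7A.5 3.15. Y58A7A.4 had 8.13, 8.77 and 9.52 in UV arrays, against 5.43, 6.19 and 7.77 in control arrays, and rose by 2.3 (SE 0.26, adjusted p = 0.00159). Y58A7A.3 had 9.42, 10.07 and 10.51 in UV arrays, against 5.49, 8.42 and 9.52 in control arrays. Its control SD of 1.22 was the highest of the 24 rises, and 1 control array of xpa-1 from 2007 set the lowest value. Y58A7A.3 rose by 2.02 (SE 0.35, adjusted p = 0.0350), but this call was lost in 12 of the 16 fits without 1 array, with adjusted p up to 0.0900.

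The gene parg-2 encodes a poly(ADP-ribose) glycohydrolase, an enzyme that takes down the chains laid on proteins at DNA breaks. It stood at 7.41, 8.33 and 9.21 (lowest, median, highest) in UV arrays, against 5.00, 5.61 and 6.79 in control arrays, and rose by 2.48 (SE 0.25, adjusted p = 0.000577) with no overlap. F-box proteins choose the targets of ubiquitin ligases, and 3 of their genes rose. For fbxa-163 the levels were 7.0, 7.65 and 9.45 in UV arrays, against 5.00, 5.87 and 6.47 in control arrays, and the rise was 2.18 (SE 0.30, adjusted p = 0.00614). It was 2.93 in xpa-1 and 1.44 in N2, but the difference of 1.49 (SE 0.46) was not called. The other F-box genes were fbxc-58, which rose by 1.65 (SE 0.21, adjusted p = 0.00377), and fbxa-3, which rose by 1.2 (SE 0.17, adjusted p = 0.00881).

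The remaining rises were of mixed kinds. F54B8.4 had levels of 7.65, 8.18 and 8.53 (lowest, median, highest) in UV arrays, against 5.00, 6.13 and 6.85 in control arrays, and rose by 2.24 (SE 0.28, adjusted p = 0.00316), by 3.11 in 2007 and 1.38 in 2008. K08D8.4, K10D11.2 and K09D9.1 rose by 1.74, 1.43 and 1.26, and the chemoreceptor family gene str-144 by 1.33. The gene rop-1, whose product is the nematode Ro protein that binds small noncoding RNAs, ran from 11.57 to 12.23 in UV arrays, against 10.96 to 11.58 in control arrays, and rose by 0.61 (SE 0.09, adjusted p = 0.0168). The cell-death-related nuclease gene crn-2 rose by 0.71, a call lost in 8 of the 16 fits without 1 array. The SWEET sugar transporter gene swt-7 rose by 0.38 and Y17D7B.3 by 0.75. The calls of swt-7 and Y17D7B.3 held in 6 of 33 alternative fits each. Of the 24 rises, 12 separated all 8 UV arrays from all 8 control arrays, as did 14 of all 17118 genes (0.0818%). The probe sets of 12 of the 36 called genes carry an Affymetrix suffix for probes that may match several transcripts, so paralogs may share their signal. Y58A7A.3, Y58A7A.4 and pgp-5 are among these 12.

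**Figure D1:**
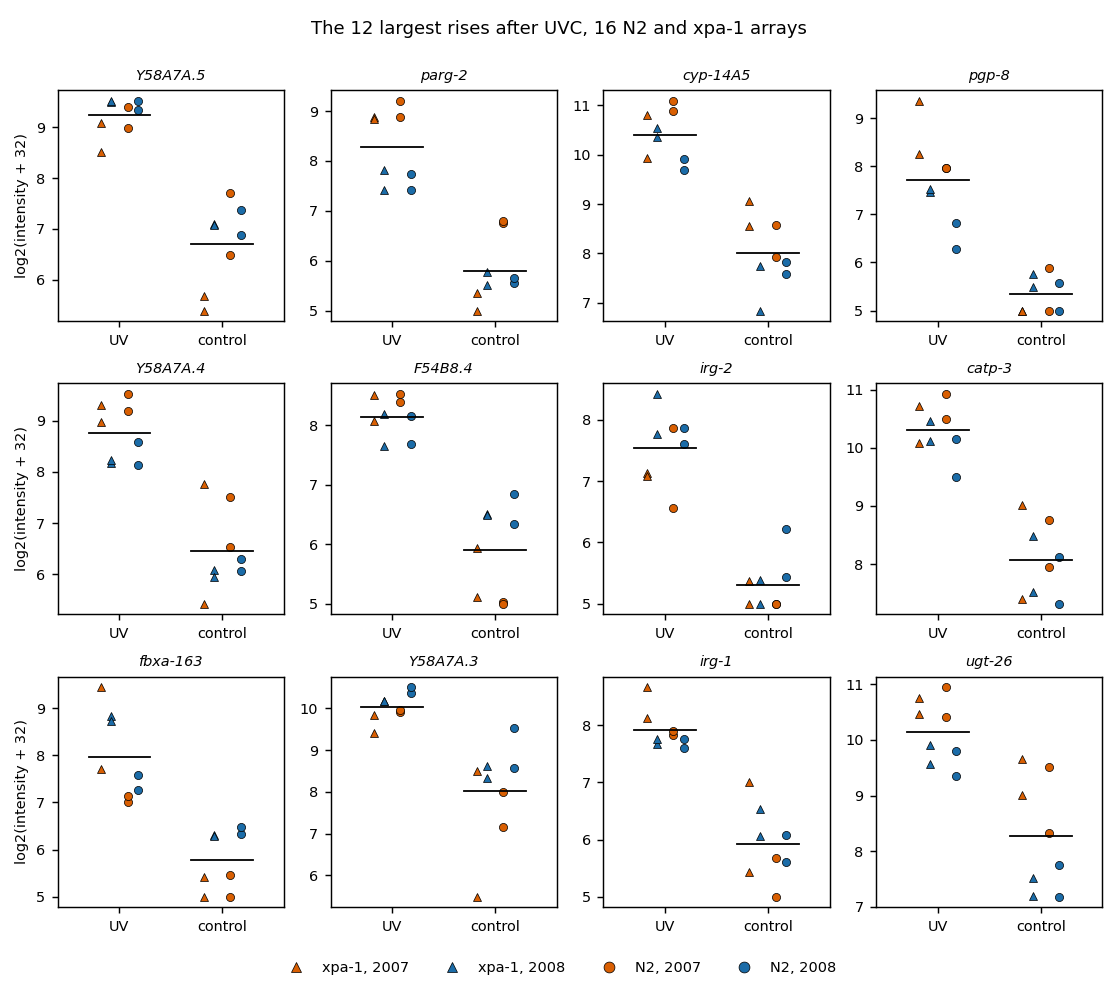
Level of the 12 genes with the largest rises, as log2(intensity + 32) with an axis of its own for each gene, on 8 UV arrays (left) and 8 control arrays (right); triangles are xpa-1, circles N2, orange 2007, blue 2008, and lines are means. For irg-2, cyp-14A5 and catp-3 every UV array lies above every control array, whereas Y58A7A.3 has 1 control array at 5.49 and ugt-26 overlaps only between years.

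The 12 falls were smaller, and none separated all 8 irradiated from all 8 untreated arrays, as 3 of all genes did (0.0175%). For each of the 12, all 8 UV arrays lay below the mean of the control arrays of the same strain and year. F46C5.1 fell furthest, with levels of 5.00, 6.59 and 7.17 (lowest, median, highest) in UV arrays, against 6.95, 7.91 and 8.63 in control arrays. The difference was -1.59 (SE 0.25, adjusted p = 0.0168), at -2.25 in xpa-1 and -0.92 in N2. Y105C5B.5 had 6.68, 7.22 and 8.75 in UV arrays, against 7.74, 9.07 and 9.90 in control arrays, and changed by -1.50 (SE 0.23, adjusted p = 0.0160), at -1.51 in xpa-1 and -1.49 in N2. F25E5.8 changed by -1.25 (SE 0.18, adjusted p = 0.00881).

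Among the falls of known function, uroc-1 encodes urocanate hydratase, an enzyme of histidine breakdown. Its levels were 8.09, 9.10 and 9.63 (lowest, median, highest) in UV arrays, against 8.94, 9.98 and 10.61 in control arrays, a change of -0.91 (SE 0.14, adjusted p = 0.0177). The acid phosphatase family gene acp-7 had 6.75, 7.61 and 8.12 in UV arrays, against 7.33, 8.17 and 8.89 in control arrays. These ranges overlap widely because the years differ, yet the change of -0.65 had the smallest adjusted p of the falls (SE 0.08, adjusted p = 0.00364) and was -0.66 in 2007 and -0.63 in 2008. The DEG/ENaC channel subunit gene del-6 changed by -0.69 and the ammonium transporter gene rhr-1, an Rh protein relative, by -0.55. F08F3.4 changed by -0.90, T14B4.5 by -0.80, C05C8.7 by -0.78, htrl-1 by -0.54 and Y106G6H.1 by -0.51. The calls of T14B4.5, C05C8.7, htrl-1, rhr-1, del-6 and F08F3.4 were each lost in 13 to 15 of the 16 fits without 1 array, with adjusted p up to 0.134, and that of Y106G6H.1 in 5. A second probe set of C05C8.7 did not follow the first, at 0.17 (adjusted p = 0.882). The chloride channel gene clh-1, singled out after its values were seen, was called on 2 probe sets that are not its brightest, at -0.72 and -0.73 (adjusted p = 0.0165 and 0.0175). Of the 12 falls, 8 separated UV from control arrays within both years, as 20 of all genes did (0.117%).

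**Figure D2:**
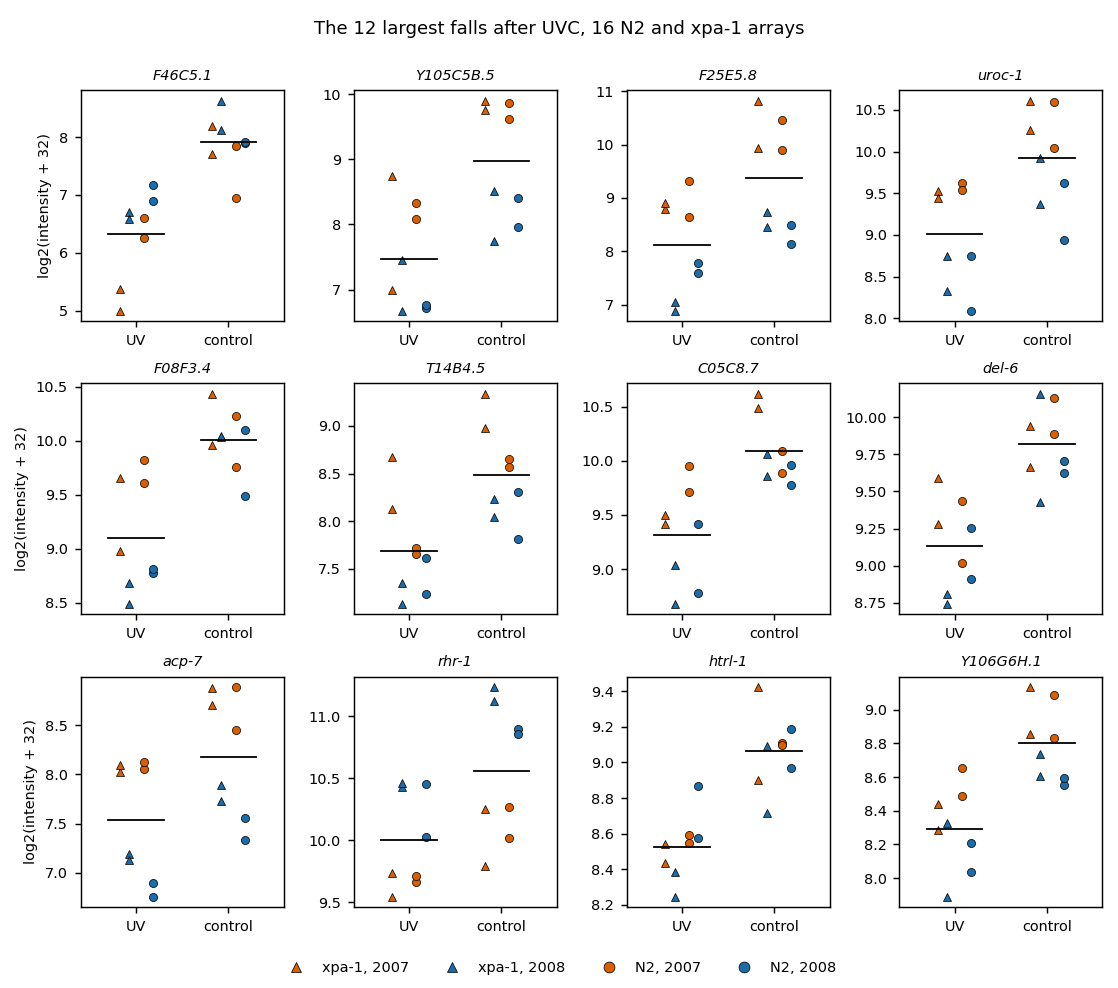
Level of the 12 genes with the largest falls, as log2(intensity + 32) with an axis of its own for each gene, on 8 UV arrays (left) and 8 control arrays (right); triangles are xpa-1, circles N2, orange 2007, blue 2008, and lines are means. F46C5.1 reaches the floor of 5.00 on 1 UV array, and for acp-7 the ranges overlap while each year keeps the UV arrays lower.

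Whether pooling hid a difference between the strains was tested as an interaction. No probe set was called for a difference of xpa-1 from N2 (0%, with 655 at an unadjusted p under 0.05). The smallest p belonged to nhr-153, a nuclear hormone receptor gene, with -0.47 in xpa-1 and 0.43 in N2 (difference -0.89, SE 0.13, adjusted p = 0.254). Across 17118 genes the effect in xpa-1 correlated with that in N2 at r = 0.299 (Spearman's rho 0.238); genes are not independent, and the strains share no array but do share the normalization. Genes ranked in either strain were then read in the other. Of the 50 genes with the smallest p among those higher in xpa-1 alone, 46 were higher in N2, with a median of 0.724 there, against 49.6% of all genes. Of the 50 ranked in N2 alone, 45 were higher in xpa-1, with a median of 0.737. Of the 50 ranked as lower in xpa-1, 42 were lower in N2, and of the 50 ranked in N2, 41 were lower in xpa-1. Fitted apart, with 8 arrays each, xpa-1 alone called 0 probe sets (1435 at an unadjusted p under 0.05) and N2 alone 1 (1191).

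**Figure D3:**
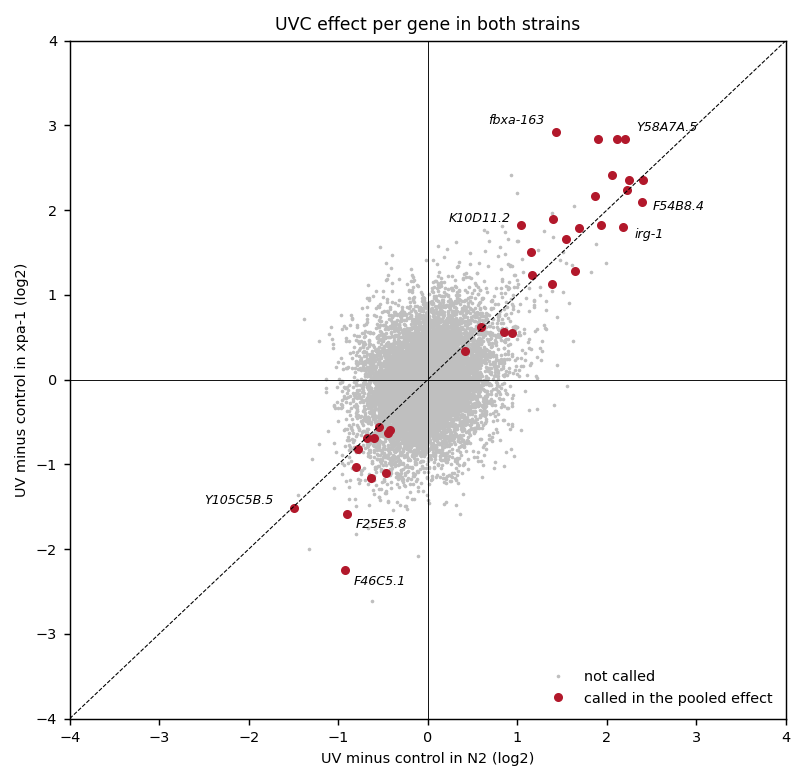
UV minus control on the log2 scale in N2 (horizontal) and in xpa-1 (vertical) for 17118 genes; red points are the 36 genes called in the pooled effect, grey points the rest, and the dashed line marks equal effects. The 36 lie at the upper right and lower left; fbxa-163 sits above the line at 2.93 in xpa-1 and 1.44 in N2, and F46C5.1 below it at -2.25 in xpa-1 and -0.92 in N2.

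The same was asked of the years. The gene cft-1, an ABC transporter of the CFTR kind, was the 1 probe set called for a difference of 2008 from 2007 (0.00443%). Its effect was 0.17 in 2008 and -1.89 in 2007, a difference of 2.06 (SE 0.13, adjusted p = 2.76e-05), and its pooled effect was not called. F53B7.4, C06B3.7 and srx-100 followed at differences of 1.87, 1.76 and 1.54 (adjusted p = 0.0502 each). Fitted apart, 2008 alone called 15 probe sets and 2007 alone 0 (1481 at an unadjusted p under 0.05). Of the 50 genes with the smallest p among those higher in 2008, 41 were higher in 2007 with a median of 0.671, against 48.9% of all genes. In the other direction, 45 of the 50 ranked in 2007 were higher in 2008, with a median of 0.292. For genes ranked as lower in 2008, 35 of 50 were lower in 2007, and for those ranked in 2007, 37 of 50 were lower in 2008 with a median of -0.0996.

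Of the 36 called genes 21 lay on chromosome V (15 rises and 6 falls), which holds 25.3% of the genes measured, and none on chromosome III. By the gene order of the assembly WBcel235, 10 of the 36 had another called gene among the 3 nearest on either side. The count for as many genes drawn from all was not computed, so this number alone shows no clustering. Besides the Y58A7A genes, pgp-5 and pgp-8 are neighbours, as are str-144 and catp-3. The opposite directions also met: cyp-14A5, which rose, lies next to rhr-1, which fell, and 3 genes from F08F3.4, which fell. Among neighbours that did not pass were C49G7.10 beside irg-2 at 1.84 (adjusted p = 0.0631) and acp-6 beside acp-7 at -0.85 (adjusted p = 0.0853).

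Beyond the called genes, 35 gene lists, drawn up with earlier results of these data known, were read by their counts and medians. Over all 17118 genes the median effect was -0.00224, 48.7% of genes were above 0, 4.77% had an unadjusted p under 0.05 and were higher, and 4.69% were lower. Of 34 measured genes of p38 and ZIP-2 immunity, 3 rose (irg-2, irg-1 and cnc-4, described above), none fell, and 31 did not pass. At an unadjusted p under 0.05, 14 were higher and none lower, and the list's median was 0.42. It was 0.73 in 2007 and 0.16 in 2008. The regulator zip-2 itself, singled out after its values were seen, averaged 10.34 ± 0.66 in UV arrays and 9.18 ± 1.16 in control arrays (SD, n = 8 each), a difference of 1.17 that did not pass (adjusted p = 0.0845). The list's lysozyme genes lys-1 and lys-2 had 0.42 and 0.56, also without passing. The kinase genes pmk-1 and sek-1 of the p38 cascade stood at 0.13 and -0.02.

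Of 310 F-box genes of the fbxa, fbxb and fbxc families, 3 rose and none fell; 46 were higher and 5 lower at an unadjusted p under 0.05, with a median of 0.10. Of 25 genes of the intracellular pathogen response, a program that C. elegans uses against microsporidia and viruses, none was called. Its ubiquitin ligase parts skr-3 and cul-6 had 1.3 (adjusted p = 0.132) and 1.12 (adjusted p = 0.168), while the pals genes pals-5 and pals-22 had -0.12 and -0.24. Of 64 UDP-glucuronosyltransferase genes 1 rose (ugt-26). The next in that family went both ways, ugt-31 at 1.74 and ugt-12 at -0.79 (adjusted p = 0.0508 each). Of 73 cytochrome P450 genes 1 rose (cyp-14A5), and the family's median was -0.03. A list of 13 P-glycoprotein genes, drawn up after the values were seen, held 2 rises (pgp-8 and pgp-5).

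No gene of the repair pathway itself passed. Of 27 nucleotide excision repair genes, 2 were higher at an unadjusted p under 0.05, and the median was 0.06. Those 2 were the damage sensor subunit ddb-1, at 0.56 (SE 0.23, adjusted p = 0.493), and the TFIIH kinase subunit mnat-1, at 0.25 (SE 0.11, adjusted p = 0.510). The lesion sensor xpc-1 was 0.24 in N2 and -0.36 in xpa-1. Nuclease genes stood at 0.07 (xpf-1) and 0.03 (xpg-1) in xpa-1, and at -0.12 and -0.03 in N2. None of 35 other repair genes passed, with ung-1, a uracil glycosylase, at 0.29 and parp-2, a poly(ADP-ribose) polymerase, at 0.26.

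Of 35 genes of the damage checkpoint and apoptosis, none passed either, and 6 were higher and none lower at an unadjusted p under 0.05. The p53 relative cep-1 was 0.05 in xpa-1 and 0.23 in N2. Its target egl-1, a BH3-only death activator, was 0.05 in xpa-1 and 1.11 in N2, and the second such target, ced-13, was 0.90 in xpa-1 and 0.49 in N2. The strain differences of egl-1 (-1.06, SE 0.77) and ced-13 (0.41, SE 0.61) were within error. The cell cycle list had 39 of 47 genes above 0 with none called, the replication helicase genes mcm-5 and mcm-3 at 0.28 and 0.30. The proteasome list had 28 of 33 above 0 and a median of 0.12, and rpn-8, a lid subunit, had 0.21. Of 31 aminoacyl-tRNA synthetase genes, a list drawn up after the values were seen, 25 were above 0 and 6 were higher at an unadjusted p under 0.05. A probe set of sars-1 that is not its brightest was called at 0.51 (adjusted p = 0.0449), while the brightest had 0.27.

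The lists of other pathways and families held no called gene apart from those named above. Of 34 genes of insulin signalling and DAF-16 targets, 5 were higher and 1 lower at an unadjusted p under 0.05, led by dod-22 at 1.54 (SE 0.47, adjusted p = 0.320) and dod-17 at 1.24 (SE 0.36, adjusted p = 0.307). Among 40 glutathione S-transferase genes gst-13 had 0.68 (adjusted p = 0.102) with 0.62 in xpa-1 and 0.73 in N2. The metallothionein gene mtl-2 had -0.47 and the sterol-regulated factor gene sbp-1, a regulator of lipid synthesis, -0.56, neither of them called. Of 164 cuticle collagens 7 were lower (4.27%) and 3 higher (1.83%) at an unadjusted p under 0.05, with a median of -0.12. Of 83 neuropeptide genes 6 were lower (7.23%) and 2 higher (2.41%), with a median of -0.10. Over all genes these shares were 4.69% lower and 4.77% higher, so the count of lower collagens was no more than the background.

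**Figure D4:**
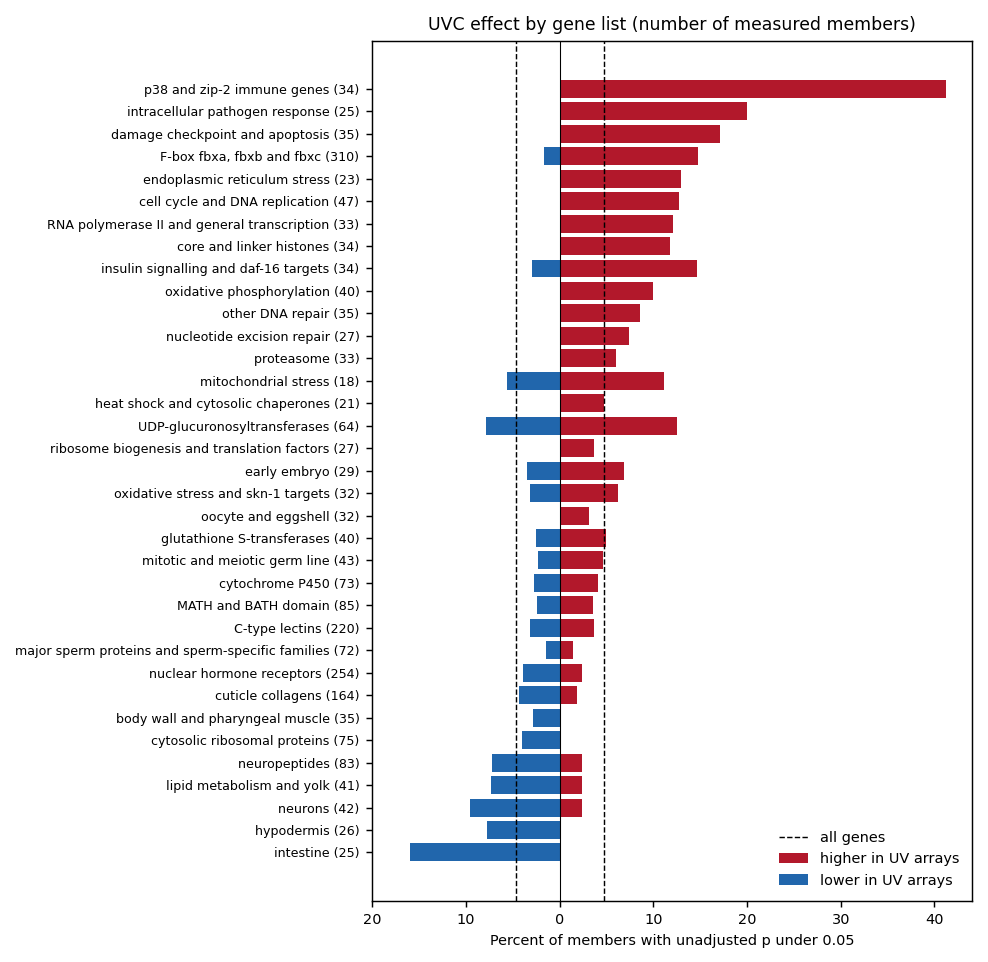
Percent of each list's members with an unadjusted p under 0.05 for UV minus control, higher in UV arrays to the right (red) and lower to the left (blue), with the number of measured members in parentheses and dashed lines at the shares over all genes, 4.77% and 4.69%. The p38 and ZIP-2 immune list reaches 41.2% higher, and intestine markers 16% lower. All lists were drawn up with earlier results of these data known.

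Markers of tissues were read beside these results, since they bear on which tissues the RNA came from. The mean level of the oocyte and eggshell markers was 11.62 to 12.21 over UV arrays and 11.67 to 12.08 over control arrays, and that of the mitotic and meiotic germ line markers 9.46 to 9.86 over UV arrays and 9.37 to 9.78 over control arrays, so germ line transcripts were detected on all 16. Germ line markers had 35 of 43 genes above 0 and a median of 0.09. Muscle markers had 6 of 35 above 0 (median -0.14), hypodermis markers 6 of 26 (median -0.19) and neuron markers 12 of 42 (median -0.18). Of 25 intestine markers 4 were lower and none higher at an unadjusted p under 0.05. None of the genes of these lists passed. Without normalization between arrays the median over all probe sets shifted to 0.103, the muscle median turned to 0.15 and the hypodermis median to 0.00, and the neuron median was -0.01. The cytosolic ribosomal proteins, 17 of 75 above 0 with a median of -0.06, likewise turned to 0.21. In that setting the germ line median also moved up, to 0.44, and the oocyte and eggshell median to 0.41. The muscle, hypodermis and neuron medians thus stayed below those of the germ line and oocyte lists. In 5 classes of equal size by gene length, the longest genes (4556 to 81724 bp) had a median effect of -0.04 with 41.6% above 0, against 48.7% to 52.7% in the other classes. Their median was below 0 in each strain and year. The part of these shifts in the gene results was not tested.

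The same genes were read in glp-1, whose adults lack most of their germ line when raised at 25 °C. Over both years, 0 of the 12 largest rises separated the 4 glp-1 UV arrays from the 4 glp-1 control arrays, where only 0.485% of all genes did, and 8 of the 12 had a mean difference above 0 (50.3% of all genes). These pooled counts joined opposite differences in the 2 years. In 2008 the glp-1 UV mean lay above the glp-1 control mean for 12 of 12 rises (43.2% of all genes), and 10 of them separated the 2 UV from the 2 control arrays (33.1% of all genes did, in either direction). In 2007 the UV mean lay below the control mean for 12 of 12, and 8 of them separated the arrays (34.1% of all genes did, in either direction). For parg-2 the glp-1 UV arrays of 2007 had 6.65 and 7.13, against 10.28 and 10.64 in the control arrays of that year. In 2008 parg-2 had 10.79 and 10.92 in glp-1 UV arrays, against 5.96 and 8.04 in glp-1 control arrays. Of the 12 largest falls, 0 separated the 4 UV from the 4 control arrays of glp-1 as lower (0.619% of all genes). For these the glp-1 UV mean lay above the control mean in 10 of 12 in 2007 and in 2 of 12 in 2008. This split by year was read after the values were seen, with 2 arrays a group, and was not tested.

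Untreated levels in glp-1 were read by year as well. In 2007 the glp-1 control mean exceeded the mean of the irradiated N2 and xpa-1 arrays for 12 of 12 rises (53% of all genes), and in 2008 for 6 of 12 (54.3%). All 4 glp-1 control arrays lay above all 8 UV arrays of N2 and xpa-1 for 3 of the 12 rises. The same held for 11 of the 12 largest falls and for 2493 of all 17118 genes. Among the 3 rises is catp-3, with 11.38 to 12.51 in the 4 glp-1 UV arrays and 11.14 to 12.31 in the 4 glp-1 control arrays. In N2 and xpa-1 it had 9.50 to 10.92 in the UV arrays and 7.32 to 9.02 in the control arrays. Of the 12 largest falls, 11 had a higher mean in glp-1 control arrays than in the UV arrays of N2 and xpa-1 in 2007, and 12 in 2008. A test of the UVC effect in N2 and xpa-1 against that in glp-1, pooled over both years and added after the values were seen, called no probe set (limma, 24 arrays, 1513 at an unadjusted p under 0.05). The difference was -3.17 for F46C5.1 (SE 0.58, adjusted p = 0.466), 2.06 for fbxa-163 (SE 0.41, adjusted p = 0.505) and 2.06 for catp-3 (SE 0.46, adjusted p = 0.716). The model let no UVC effect differ by year, so the opposite glp-1 differences of the 2 years entered its error. For parg-2 the SE was 1.16. The lack of calls therefore does not show that the effects were alike.

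**Figure D5:**
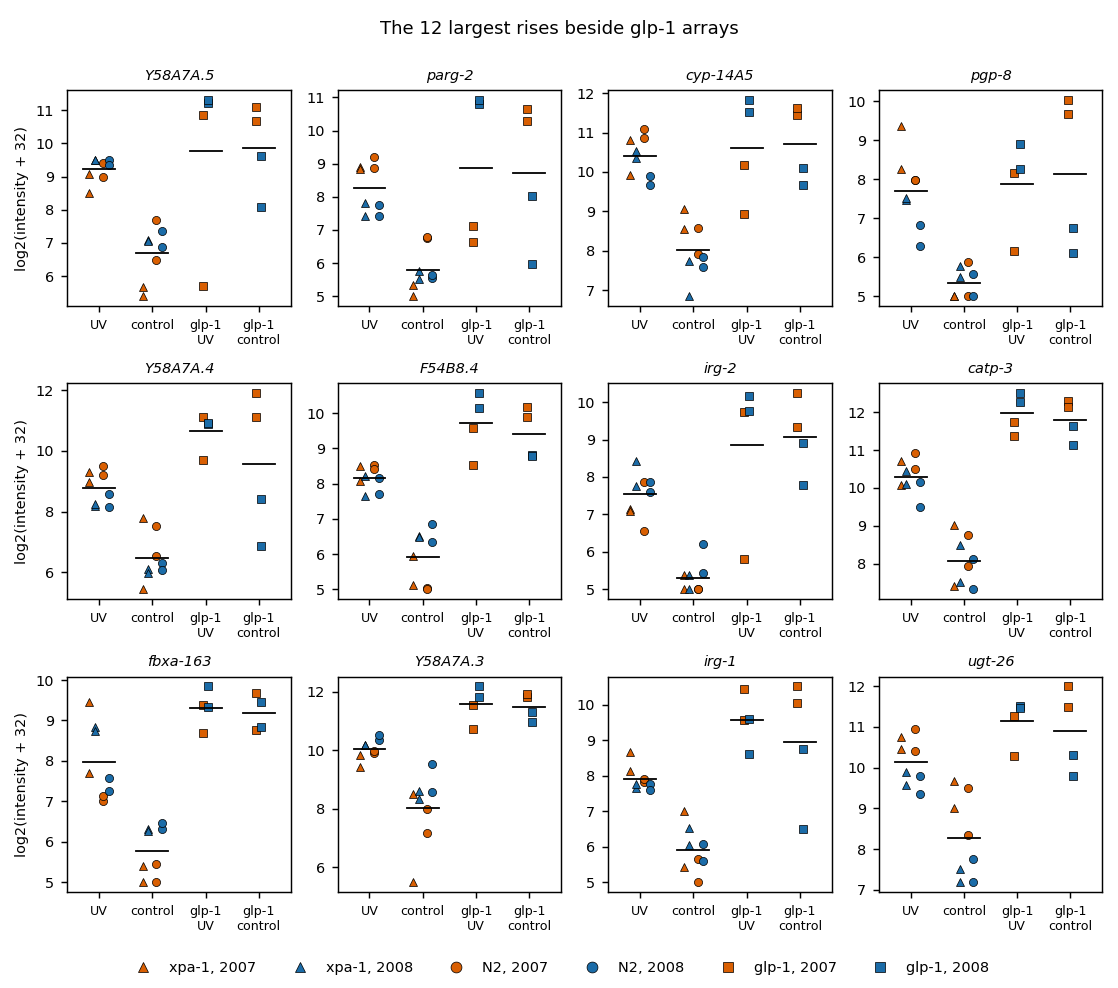
Level of the 12 genes with the largest rises, as log2(intensity + 32) with an axis of its own for each gene, on the 8 UV and 8 control arrays of xpa-1 and N2 and on the 4 UV and 4 control arrays of glp-1 (squares); orange is 2007, blue 2008, and lines are means. In glp-1 the UV means lie below the control means in 2007 and above them in 2008 for each of the 12 genes, as for parg-2 at 6.65 and 7.13 against 10.28 and 10.64 (2007). For catp-3 all 8 glp-1 arrays lie above the highest UV array of the other strains.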

How the data were processed

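RNA of whole worms was labelled with biotin and hybridised to Affymetrix arrays, per the labels' protocols. The intensity values are those the authors deposited: 22548 probe sets by 24 arrays on a linear scale, partly below 0. The sources used here do not give the summary method, background correction or scaling. Medians of the log2 columns spanned 2.62, above the limit of 0.5, so values were quantile normalized over all 24 arrays, set to 0 where below 0 (15.5% of normalized values were at or below 0), and log2(value + 32) was taken. The fit used limma 3.58.1 in R 4.3.3 with strain, year and UVC as additive terms over 16 arrays (12 residual and 1.66 prior degrees of freedom). Tests were two-sided, and Benjamini-Hochberg adjustment ran over the whole table, with a limit of 0.05. Interactions tested strain and year. The fit was tested on simulated data.

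The supplied annotation gave 20766 probe sets 1 gene, 887 several and 895 none. A gene was read on the brightest probe set naming it alone (17118 genes). Named were the 12 largest rises and falls among called genes with 1 sign in all 4 combinations of strain and year, and all other called genes. The rule also covered up to 4 called members of each list (2 with the smallest p where none was called) and the 5 smallest p of each difference. It further covered the nucleotide excision repair genes with ced-13, egl-1 and cep-1. Of the genes beyond the called ones that the rule covered, only a part is printed above. Members and lists were chosen with earlier results of these data known. Genes outside the rule (zip-2, lys-1, lys-2, pmk-1, sek-1, pals-5, pals-22, ugt-31, ugt-12, C49G7.10, acp-6, irg-6, cnc-1, cnc-2, cnc-3, cnc-5, clh-1 and sars-1) were chosen after their values were seen. The labels do not say whether equal replicate numbers pair UV and control arrays, and the main fit did not pair them. The UV and control deviations of equal replicate number correlated at 0.061 and 0.24 in N2 and -0.14 and 0.30 in xpa-1 (2007 and 2008). These values do not decide whether the arrays are paired.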

Additional observations from a re-analysis of the deposited data

Results flagged for a closer look

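In 7 of 144 groups of 4 arrays of a called gene, the highest or lowest array lay far from the other 3. The limit used flags by chance about 1 group in 20 of like arrays. Each group here joined 2 arrays of 2007 and 2 of 2008, so that rate need not apply. Among UV arrays the flagged ones were an xpa-1 array of 2007 at 7.23 for fbxc-58, an xpa-1 array of 2007 at 12.19 for rop-1, and an N2 array of 2008 at 8.87 for htrl-1. Among control arrays these were 2 xpa-1 values on 1 array of 2007, at 5.49 for Y58A7A.3 and 5.89 for Y17D7B.3, and 2 N2 arrays of 2007, at 6.76 for str-144 and 6.95 for F46C5.1. Without that xpa-1 control array the rise of Y58A7A.3 was 1.71.

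The UVC effect on cft-1 differed between 2008 and 2007 by 2.06 on the log2 scale, by a test of the difference itself. All 4 UV arrays of 2007 read 5.00 for this gene, the floor.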

How the results depend on the processing

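No called gene changed sign in any alternative fit, but the choice of genes on the same arrays largely fixes this. The 43 probe sets (28 higher, 15 lower, 65.1% higher) became 13 with a replicate block (9 higher, 11 shared), 47 with it as a random term, 15 in 2008 alone, 0 in 2007 alone, 1 in N2 alone, 0 in xpa-1 alone, 633 after median centring (97.3% higher), 272 with 1 weight per year (45.6% higher, all 43 shared), 9 with log2(value + 1), and 18 at an adjusted p of 0.01 (88.9% higher). Values as deposited gave 31 (96.8% higher, 14 shared) and all 24 arrays 33 (51.5% higher). Leaving out 1 array gave 26 to 47; without xpa-1 UV 2008-1 it was 26 and without xpa-1 control 2008-1 it was 27. The cause of these shifts was not tested. The strain difference stayed at 0 in each alternative fit. The year difference, 1 probe set, became 2 with a replicate block, 21 after normalization within each year, 4 with 1 weight per year, 3 without the dimmest 40%, and 1 to 32 without 1 array, the highest without N2 control 2007-2 and 18 without xpa-1 control 2007-1. List medians moved in 163 of 1260 comparisons. The genes cyp-14A5, ugt-26, catp-3, Y58A7A.4 and Y58A7A.5 were called in 31 of 33 alternatives, rhr-1 and del-6 in 8. Low signal in 2007 limits what can be seen for dim genes.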
